A study of Mus musculus with 2 samples.

Results

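Ionotropic transmitter receptors are ion channels that open when a neurotransmitter binds. Glutamate receptors of the AMPA, kainate and NMDA classes pass cations and excite neurons. GABA-A and glycine receptors pass chloride and inhibit mature neurons, although they depolarise many embryonic neurons. Nicotinic acetylcholine receptors pass cations in neurons and, with a different set of subunits, at the endplate of skeletal muscle. Each receptor is a ring of several subunits, most often from separate genes, so the subunit transcripts a tissue holds limit which receptors it can build.

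The subunit genes were chosen by symbol: protein-coding genes named Gabr, Glra or Glrb, Gria, Grik or Grin, and Chrna, Chrnb, Chrnd, Chrne or Chrng. The rule names no measured level, but it was set with earlier results of these data known. The rule took 56 genes of the 43346 Ensembl genes in the tables, 21474 of which are protein-coding. They comprise 19 GABA-A, 5 glycine, 16 ionotropic glutamate and 16 nicotinic subunit genes. Glutamate delta, serotonin-gated, ATP-gated and acid-sensing channels fall outside it.

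The tissue was the central nervous system of embryos of C57BL/6J, an inbred wild-type mouse strain, at embryonic day 11.5. The RNA was polyadenylated and longer than 200 nt. Each of the 2 libraries, biological replicates 1 and 2 of 1 group, was made from littermates of both sexes. With 1 group no condition was compared and no p-value is given. Both libraries held central nervous system markers: Tubb3, a neuronal tubulin, stood at 882 and 720 TPM and Sox2, a neural progenitor factor, at 91.5 and 56.3 TPM in replicates 1 and 2. TPM gives each transcript's share of a fixed total after correction for its length, so it may be compared between genes, and an SD over the pair measures only the spread between these libraries.

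Marker genes of several tissues differed between the libraries. A gene is called higher or lower here when it had at least 100 counts over both libraries and its scaled counts differed at least 2-fold. All 8 Hox genes of the trunk axis (Hoxa9, Hoxb9 and others) were higher in replicate 2, with a summed level of 2.35 TPM in replicate 1 and 129.6 TPM in replicate 2. All 11 skeletal muscle precursor genes with 100 or more counts were higher there as well, with sums of 16.4 and 191.8 TPM over the 12 listed genes. Of the 8 progenitor markers, 2 were lower in replicate 2 (Nes and Sox1), with sums of 3920 and 1973 TPM. Vim, at 2643 and 1153 TPM, made up most of those sums and was not called lower (scaled-count ratio 0.566). Of all protein-coding genes with 100 or more counts, 5.58% were higher and 3.95% lower. No gene of any marker list had 0 counts in either library.

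The sequences that carry the exon and promoter results are shown first. AMPA receptor genes hold a pair of mutually exclusive exons, flop and flip, that encode part of the ligand-binding domain and set how fast the channel desensitises. Both exons are 115 bases long in all 4 genes, with flop upstream of flip. The pair differed at 36 bases in Gria1 and in Gria2, at 32 in Gria3 and at 31 in Gria4. The exons of Gria2 (mm10, minus strand, flop chr3:80691320-80691434 and flip chr3:80690404-80690518) and Gria3 (plus strand, flop chrX:41654810-41654924 and flip chrX:41669501-41669615) are printed because Gria2 had the widest gap between the exon sides in its junction reads and no Gria3 read joined flop to the exon after the pair. Capitals mark the bases at which flop and flip of the same gene differ.
Gria2 flop: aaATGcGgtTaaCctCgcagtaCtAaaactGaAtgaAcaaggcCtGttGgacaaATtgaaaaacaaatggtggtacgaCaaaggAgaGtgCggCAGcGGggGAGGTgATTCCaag
Gria2 flip: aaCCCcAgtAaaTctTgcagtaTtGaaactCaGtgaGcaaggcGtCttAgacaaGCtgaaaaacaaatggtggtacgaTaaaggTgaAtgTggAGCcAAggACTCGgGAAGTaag
Gria3 flop: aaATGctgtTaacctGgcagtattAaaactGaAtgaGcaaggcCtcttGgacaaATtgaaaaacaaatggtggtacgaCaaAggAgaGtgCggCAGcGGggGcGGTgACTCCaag
Gria3 flip: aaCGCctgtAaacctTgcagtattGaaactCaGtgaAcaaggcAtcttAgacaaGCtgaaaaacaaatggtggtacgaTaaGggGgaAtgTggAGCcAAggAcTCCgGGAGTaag

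The Grin1 C-terminal cassette exon encodes part of the intracellular tail of the obligatory NMDA subunit (111 bases, minus strand, chr2:25294438-25294548). It is a coding exon on mm10, and no base is capitalised because it is either included or skipped whole.
Grin1 111-base exon: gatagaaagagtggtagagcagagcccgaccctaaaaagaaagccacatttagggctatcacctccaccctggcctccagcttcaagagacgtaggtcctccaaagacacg

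The stretches just upstream of the RefSeq starts of Chrna1 and Chrng, muscle acetylcholine receptor genes whose levels differed most between the libraries, are shown because they hold the E-box words CAGCTG or CAGGTG, short motifs that myogenic factors such as MyoD bind. Words were searched on both strands, and capitals mark them. The Chrna1 stretch spans chr2:73580339-73580508 (minus strand, 170 bases) and the Chrng stretch chr1:87205641-87205809 (plus strand, 169 bases), from RefSeq on GRCm38.p6. Neither overlaps an annotated exon of GENCODE release M21. The Chrng stretch lies inside the GENCODE gene, which begins further upstream at 87204657, and so falls in an intron of a longer annotated transcript.
Chrna1 upstream: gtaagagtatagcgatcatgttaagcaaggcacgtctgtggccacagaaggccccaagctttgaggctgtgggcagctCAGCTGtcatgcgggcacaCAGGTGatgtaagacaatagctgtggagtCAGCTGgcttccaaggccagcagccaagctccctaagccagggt
Chrng upstream: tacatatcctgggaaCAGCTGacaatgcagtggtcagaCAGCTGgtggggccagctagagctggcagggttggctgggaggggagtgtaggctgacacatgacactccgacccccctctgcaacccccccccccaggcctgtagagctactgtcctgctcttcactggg

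Subunit transcripts were a small share of the RNA. The 56 genes held 61120 of 120461126 counts in replicate 1 (0.0507%) and 63256 of 108007021 in replicate 2 (0.0586%). Their summed level was 186.5 and 226.5 TPM. At 1 TPM or more in both libraries stood 26 of the 56 genes (46.4%), against 60.8% of all protein-coding genes. The median of the mean levels was 1.26 TPM for the subunits and 5.29 TPM for protein-coding genes. Only 4 genes reached 10 TPM in both libraries, 11 stayed below 0.1 TPM in both, and 7 passed 1 TPM in 1 library only, 6 of them in replicate 2.

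**Figure D1:**
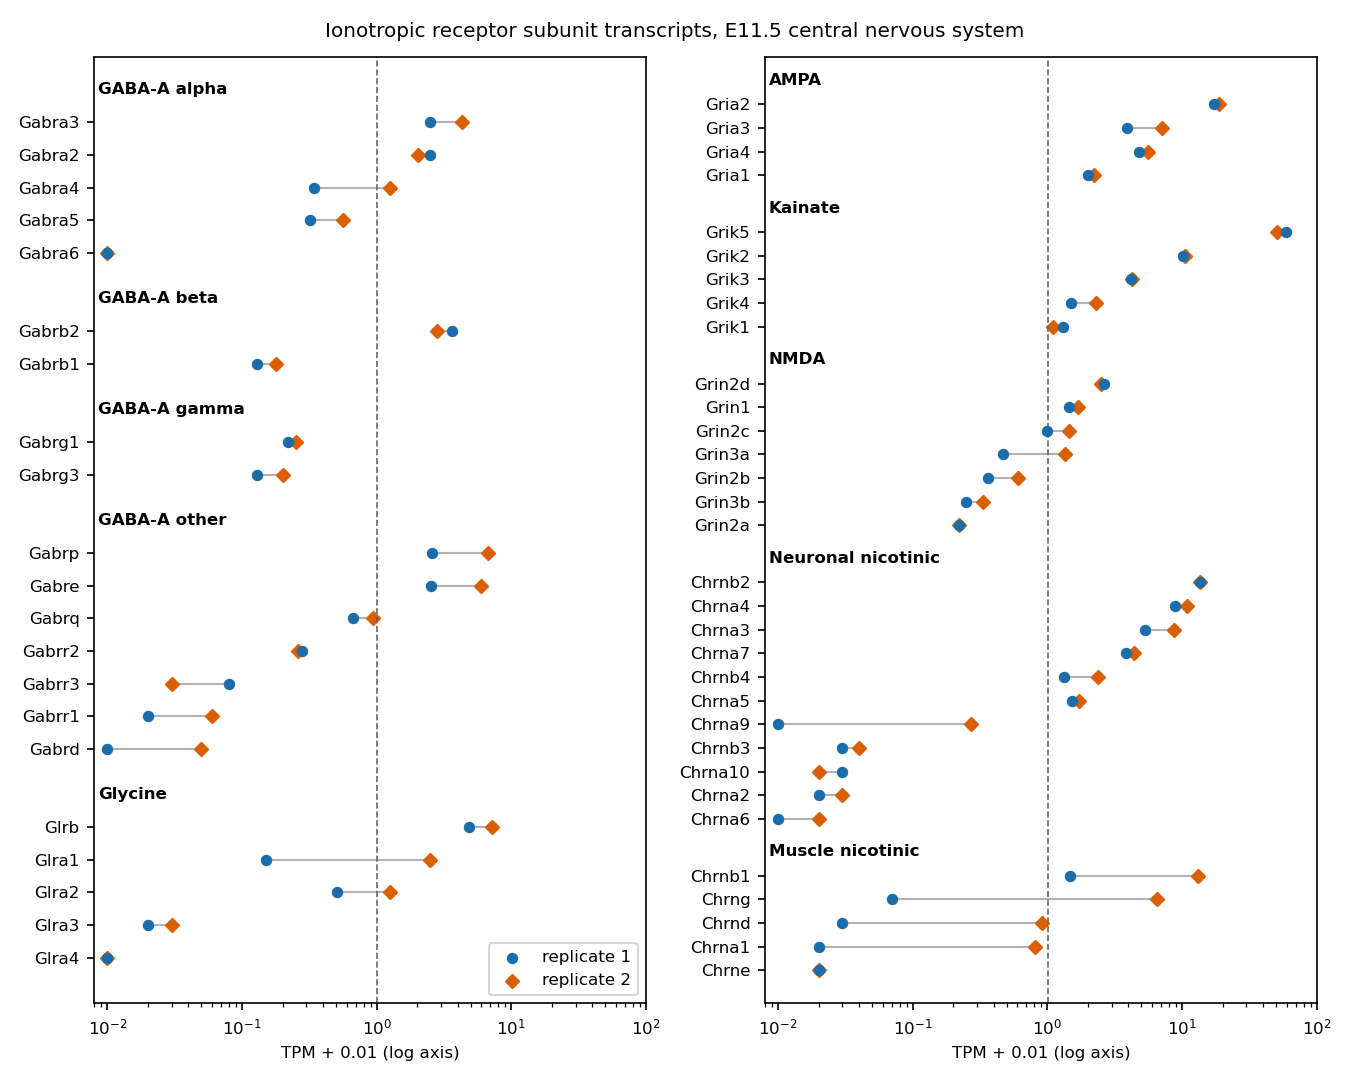
Level of the subunit genes described here (TPM + 0.01, log axis) in replicate 1 (circles) and replicate 2 (diamonds), grouped by receptor family and joined by a line; the dashed line marks 1 TPM. All AMPA and kainate genes lie right of the line in both libraries, whereas 4 muscle nicotinic genes lie far apart between libraries.

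The highest single gene was a kainate receptor gene, although the median of the AMPA genes (5.32 TPM) was above that of the kainate genes (4.21 TPM). Grik5, an auxiliary-type kainate subunit that forms channels only together with the primary subunits, stood at 59.3 TPM in replicate 1 and 50.8 TPM in replicate 2 (55.1 ± 6.01, SD, n = 2). It alone made up 31.8% and 22.4% of the summed level of all 56 genes. Reads joined all 19 annotated Grik5 introns, with 14082 and 12911 junction reads in the first and second values of the mm9 list.

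The primary kainate subunits were lower. Grik2 stood at 10.2 and 10.6 TPM, Grik3 at 4.17 and 4.24 TPM, and Grik1 at 1.30 and 1.09 TPM. Grik4, the other high-affinity subunit that needs a primary partner, stood at 1.49 and 2.28 TPM. The order Grik5, Grik2, Grik3, Grik4, Grik1 was the same in both libraries, and no neighbouring ranges overlapped. The pairing subunits Grik4 and Grik5 thus held most of the family's summed level of 76.5 and 69.0 TPM, since Grik5 alone held 77.6% and 73.7% of it.

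All 4 AMPA receptor genes passed 1 TPM in both libraries. Gria2, whose edited form makes the channel impermeable to calcium, led with 17.4 and 18.8 TPM (18.1 ± 1.03, SD, n = 2) and held 62.1% and 55.9% of the family's level. Only part of the Gria2 level was given to coding transcripts in the authors' assignment of reads to overlapping transcript models. Its coding transcripts Gria2-202 and Gria2-201 stood at 5.28 and 1.59 TPM in replicate 1 and 2.90 and 5.50 TPM in replicate 2. Gria3 stood at 3.87 and 7.04 TPM and Gria4 at 4.76 and 5.62 TPM, so their ranges overlapped and their order changed between the libraries. Gria1, a main subunit of adult hippocampal receptors, was lowest at 1.98 and 2.20 TPM. None of the 4 genes differed 2-fold between the libraries.

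NMDA receptor genes were low throughout. Grin2d, a subunit known for its early expression, was highest at 2.61 and 2.51 TPM. Grin1, the subunit that every NMDA receptor needs, stood at 1.43 and 1.67 TPM, which did not overlap with Grin2d and did overlap with Grin2c at 0.98 and 1.45 TPM. Grin2b, the main GluN2 subunit of the late embryonic forebrain, stood at 0.35 and 0.60 TPM, and Grin2a, which predominates in adult brain, was lowest at 0.21 TPM in both. By counts Grin2b (543 and 607) was above Grin1 (409 and 433). The effective length used for TPM was 18105 and 13712 bases in Grin2b, against 3336 and 3526 in Grin1. The glycine-binding subunit Grin3a had 259 and 669 counts, or 0.46 and 1.35 TPM, and was 2.64-fold higher in replicate 2 (95% interval 2.28 to 3.06). Grin3b stood at 0.24 and 0.32 TPM, and 32.1% of its exonic bases overlap Tmem259 on the opposite strand. Opposite-strand genes also overlap 13.5% of the exonic bases of Grin1 (Grin1os) and 9.66% of those of Grin2d (Gm45441). Whether the authors counted reads by strand is not given in the sources used here, so reads of such pairs cannot be told apart.

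GABA-A receptors usually join alpha, beta and gamma subunits. Among gamma genes, Gabrg1 stood at 0.21 and 0.24 TPM and Gabrg3 was lowest at 0.12 and 0.19 TPM. Among beta genes, Gabrb2 stood at 3.63 and 2.80 TPM (3.22 ± 0.587, SD, n = 2), and Gabrb1 lay far below at 0.12 and 0.17 TPM.

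Among alpha genes, Gabra3 stood at 2.46 and 4.27 TPM and Gabra2, another subunit of immature brain, at 2.46 and 2.02 TPM. Gabra2 carries only 1 annotated transcript here, of the nonsense-mediated decay class in release M21.

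Gabra4, which forms receptors outside synapses, had 111 and 360 counts, or 0.33 and 1.25 TPM, and was 3.31-fold higher in replicate 2 (2.67 to 4.14). Gabra5 stood at 0.31 and 0.55 TPM. Gabra6, a subunit of cerebellar granule cells, had 0 counts in both libraries. The upper limit that 0 counts allow is 3 counts, or 0.0260 and 0.0266 CPM (counts scaled to a fixed library total), which covers counting error only.

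Among the remaining GABA-A genes, Gabrp, the pi subunit best known outside the brain, had 681 and 1509 counts (2.57 and 6.66 TPM). It was 2.26-fold higher in replicate 2 (2.07 to 2.48). Gabre, the epsilon subunit, had 805 and 1709 counts (2.54 and 5.95 TPM) and was 2.17-fold higher there (1.99 to 2.36). In Gabre, 44.9% of junction reads in its span joined positions that are not an annotated intron, compared with 1.45% in Gabrp. These Gabre reads numbered 225 in the first mm9 value and 28 in the second, beside 63 and 248 reads at annotated introns. Gabrq, the theta subunit, stood at 0.66 and 0.93 TPM. Gabrd, which replaces gamma in receptors outside synapses, was lowest, with 0 counts in replicate 1 and 5 in replicate 2. The 3 rho genes, which serve chiefly in retina, stayed at or below 0.27 TPM.

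Glycine receptors join alpha subunits with the beta subunit, which binds the anchor gephyrin. Glrb led with 4.83 and 7.23 TPM (6.03 ± 1.70, SD, n = 2). Glra1, the alpha subunit of adult spinal cord and brainstem, had 26 and 384 counts (0.14 and 2.46 TPM) and was 15.1-fold higher in replicate 2 (10.1 to 23.4). Of its exonic bases, 5.84% overlap the antisense gene Gm12236. Glra2, the fetal alpha subunit, had 126 and 269 counts (0.50 and 1.24 TPM) and was 2.18-fold higher (1.76 to 2.72). Glra2 was thus above Glra1 in replicate 1 and below it in replicate 2. Glra3 had 1 and 3 counts, and Glra4 had 0 in both.

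Neuronal nicotinic genes split into 6 that were measured well and 5 that were barely detected. Chrnb2, which joins alpha4 in the main high-affinity brain receptor, stood at 13.7 TPM in both libraries (13.7 ± 0.0283, SD, n = 2). By scaled counts its ratio of replicate 2 over replicate 1 was 0.872 (0.840 to 0.905). Although 16.3% of its exonic bases overlap the editing enzyme gene Adar on the opposite strand, reads joined all 5 of its annotated introns, 918 in the first mm9 value and 955 in the second. Its partner Chrna4 stood at 8.89 and 10.9 TPM.

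The genes of the ganglion-type receptor lie side by side. Chrna3, its main alpha subunit, stood at 5.27 and 8.64 TPM, Chrnb4 at 1.31 and 2.35 TPM, and Chrna5, an accessory subunit, at 1.52 and 1.70 TPM. Chrna7, which forms channels by itself and is highly permeable to calcium, stood at 3.80 and 4.42 TPM. None of these 6 genes differed 2-fold between the libraries. Of the other 5, Chrna2, Chrna6, Chrna10 and Chrnb3 had at most 10 counts in a library, with Chrna6 lowest at 0 and 1. Chrna9, a hair-cell subunit, had 0 counts in replicate 1 and 16 in replicate 2, and 4 of its 11 annotated introns had a junction read.

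Of the 56 genes, 39 had at least 100 counts over both libraries (68.7% of protein-coding genes did). In replicate 2, 10 of the 39 (25.6%) were at least 2-fold higher after scaling by the trimmed mean of M-values (TMM), against a background of 5.58% among protein-coding genes. None was 2-fold lower, against 3.95%. The other 29 differed less than 2-fold. The median log2 ratio of replicate 2 over replicate 1 was 0.19 for the 39 genes and -0.01 for protein-coding genes. Each side of a ratio is 1 library, so no test was made, and the exact 95% binomial intervals cover counting error only. In bulk RNA, a difference in the number of cells of a type and a difference in RNA per cell cannot be told apart.

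**Figure D2:**
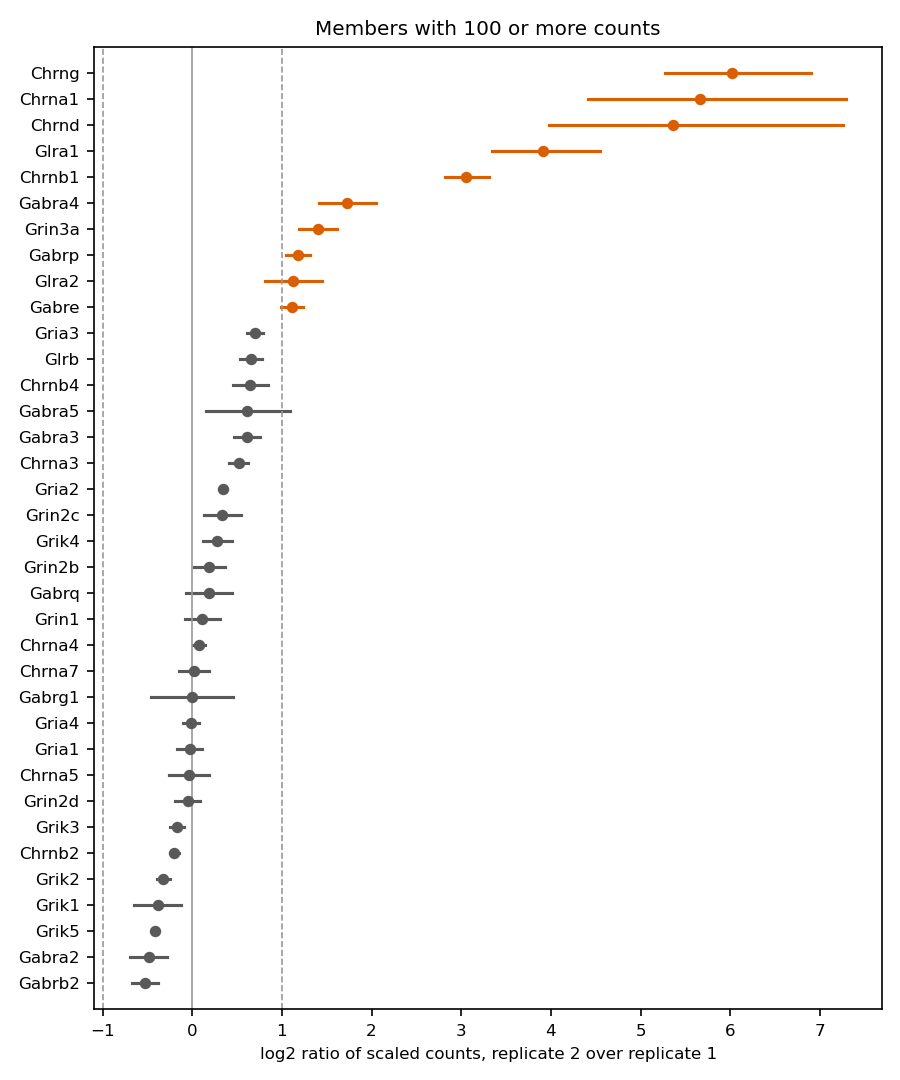
Log2 ratio of scaled counts, replicate 2 over replicate 1, for the genes described here with 100 or more counts; lines are exact 95% intervals for counting error, dashed lines mark 2-fold, and orange marks the 10 genes at least 2-fold higher. The 4 muscle receptor genes and Glra1 stand beyond the other genes plotted.

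The 10 genes came from 5 families: 4 muscle nicotinic genes, the 2 glycine genes Glra1 and Glra2, the GABA-A genes Gabra4, Gabre and Gabrp, and the NMDA gene Grin3a. No AMPA, kainate or neuronal nicotinic gene was among them. On the log2(TPM + 1) scale, which understates the change of low genes, 4 of the 10 remained 2-fold apart (Chrnb1, Chrng, Glra1 and Gabrp). Gabre (0.97), Chrnd (0.90), Chrna1 (0.83), Gabra4 (0.76), Grin3a (0.69) and Glra2 (0.58) then fell short. That scale also moved the median of protein-coding genes to 0.11.

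The muscle-type receptor gave the widest gap between the libraries. Its fetal form joins the alpha1, beta1, delta and gamma subunits, and epsilon replaces gamma after birth. Chrng, the fetal gamma subunit, had 14 and 892 counts (0.06 and 6.49 TPM) and was 65.1-fold higher in replicate 2 (38.6 to 119.6). Chrna1, which carries the acetylcholine-binding sites, had 5 and 247 counts (0.01 and 0.80 TPM) and was 50.5-fold higher (21.3 to 156.8). Chrnd had 4 and 161 counts (0.02 and 0.90 TPM) and was 41.1-fold higher (15.8 to 152.8).

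Chrnb1 had 156 and 1269 counts (1.46 and 13.2 TPM) and was 8.31-fold higher (7.03 to 9.88). Only part of the Chrnb1 level was assigned to its coding transcript, Chrnb1-201, which stood at 0.73 and 7.61 TPM. The retained-intron transcripts Chrnb1-204 and Chrnb1-202 were given 0.60 and 0.11 TPM in replicate 1 and 2.85 and 2.36 TPM in replicate 2. Chrne, the adult epsilon subunit, had 1 count in each library. The family's summed level was 1.56 TPM in replicate 1 and 21.4 TPM in replicate 2, whereas neuronal nicotinic genes summed to 34.5 and 42.0 TPM.

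Some genes of the endplate and the muscle precursor genes were also higher in replicate 2. Of 7 neuromuscular junction partners, 4 were at least 2-fold higher in replicate 2. Musk, the receptor kinase that gathers acetylcholine receptors, had 6 and 176 counts. Rapsn, which clusters them, had 62 and 343, Colq 17 and 93, and Dok7 102 and 223. The nerve-derived agrin gene Agrn (199.3 and 252.8 TPM), its receptor gene Lrp4 (10.8 and 9.31 TPM) and the esterase gene Ache (5.63 and 8.55 TPM) did not meet the 2-fold rule. By scaled counts, replicate 2 over replicate 1 was 0.883 for Agrn (0.875 to 0.892), which is opposite in direction to its TPM, 0.769 for Lrp4 (0.742 to 0.797) and 1.28 for Ache (1.18 to 1.38). The myogenic factors Myod1 (21 and 2364 counts) and Myog (45 and 3275 counts) and the skeletal actin gene Acta1 (211 and 4285 counts) were also higher in replicate 2. The part of muscle RNA in the receptor ratios was not tested.

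**Figure D3:**
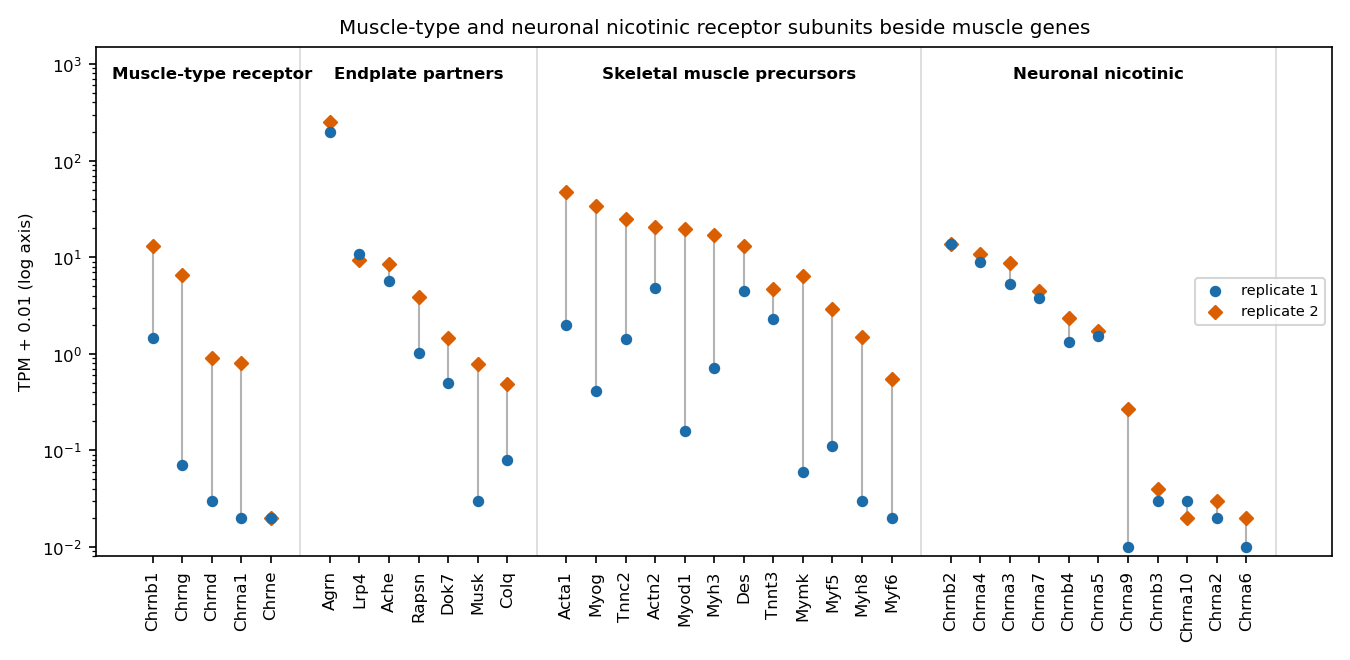
Levels (TPM + 0.01, log axis) of muscle-type receptor genes, endplate partners, skeletal muscle precursor genes and neuronal nicotinic genes in replicate 1 (circles) and replicate 2 (diamonds). Chrng lies at 0.06 and 6.49 TPM and Myog at 0.40 and 34.2 TPM, while Chrnb2 lies at 13.7 TPM in both.

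Genes of other cell types also differed beside the non-muscle members. Of 6 spinal motor neuron genes, 5 were higher in replicate 2, among them Slc18a3, the vesicular acetylcholine transporter gene (25 and 442 counts), and Chat, the acetylcholine-synthesising enzyme gene (14 and 186 counts), with sums of 18.5 and 23.9 TPM over the list. Of 6 sympathetic and cranial ganglion genes, 3 were higher (Dbh, Phox2a and Hand2), with sums of 21.2 and 36.4 TPM, and of 6 sensory ganglion genes 1 was, with sums of 67.6 and 85.8 TPM. Of 7 mesenchyme genes, 2 were higher (Prrx1 and Pdgfra), with sums of 687.9 and 695.7 TPM. Of 5 erythroid genes, 1 was higher (Hba-x, 2.01-fold, which fell short of 2-fold under DESeq2 size factors), with sums of 11585 and 18921 TPM. Of 10 genes of post-mitotic neurons, none was higher and Nefm was lower, with sums of 1946 and 1524 TPM. Their part in the ratios of Glra1, Glra2, Gabra4, Gabre, Gabrp and Grin3a was not tested.

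The upstream words were read from RefSeq stretches of 250 bases, available for 41 of the 56 genes. Either word occurred in 17 of the 46 stretches of these genes (36.96%) and in 27.7% of all 32851 stretches in the table. Chrna1 held 3 words, beginning 92, 73 and 44 bases before the start. Chrng held 2, at 155 and 132 bases. Of all stretches, 5.21% held 2 or more. Chrnb1 held 1 word at 29 bases and Chrne, which had 1 count in each library, held 1 at 138 bases. Chrna9 and Chrnb4 each held 2, so such words were not particular to the muscle genes. A match describes letters only.

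Flip and flop were told apart in 2 ways. From transcript TPM on mm10, the share of flip among transcripts with only flip or only flop was 86.9% and 87.2% in Gria1, 94.1% and 96.9% in Gria3, and 98.6% and 80.4% in Gria4. In Gria2 it was 76.9% in replicate 1 and 34.5% in replicate 2. A Gria2 transcript annotated with both exons in a row, Gria2-203, of the nonsense-mediated decay class, took 40.9% and 19.3% of that gene's TPM. Gria2 transcripts with neither exon, all of the retained-intron class, took 19.6% and 36.1%.

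Junction reads on mm9 gave the choice directly on each side of the exons. The list's first and second values are not tied to a replicate by any label, so they are summed here. At annotated introns Chrng had 11 and 739 reads in the first and second values, and Chrna1 had 2 and 157. Their counts in replicates 1 and 2 differed in the same direction. On the 3′ side, 250 of 250 reads of Gria3 left from flip (100%, exact 95% interval 98.5 to 100), as did 95 of 103 of Gria4 (92.2%, 85.3 to 96.6) and 38 of 41 of Gria1 (92.7%, 80.1 to 98.5). In Gria2, 1147 of 1300 left from flip (88.2%, 86.4 to 89.9). On that side flip held most reads in all 4 genes.

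On the 5′ side the genes differed more. Of the reads entering either exon, flip took 89 of 109 in Gria3 (81.7%, 73.1 to 88.4), 56 of 62 in Gria4 (90.3%, 80.1 to 96.4) and 7 of 12 in Gria1 (58.3%, 27.7 to 84.8). The Gria1 share rests on few reads and was 1 of 5 in the first mm9 value and 6 of 7 in the second. In Gria2 flip took 64 of 354 (18.1%, 14.2 to 22.5), far from the 88.2% on the other side. The Gria2 share on the 5′ side was 20.2% in the first mm9 value and 15.8% in the second. On neither side did the 2 values lie as far apart as the 76.9% and 34.5% from transcript TPM. Reads joining flop straight to flip numbered 294 in Gria2, 32 in Gria3, 17 in Gria4 and 5 in Gria1. A molecule with this junction enters flop on the 5′ side and leaves from flip on the 3′ side. In Gria2, 354 reads entered the pair from the exon before it and 1300 left to the exon after it, 153 of them from flop. Why the 2 sides differ was not tested. In Gria4, 45 reads skipped both exons, 40 of them in the first mm9 value and 5 in the second, against 2 in Gria2 and 0 in Gria1 and Gria3.

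**Figure D4:**
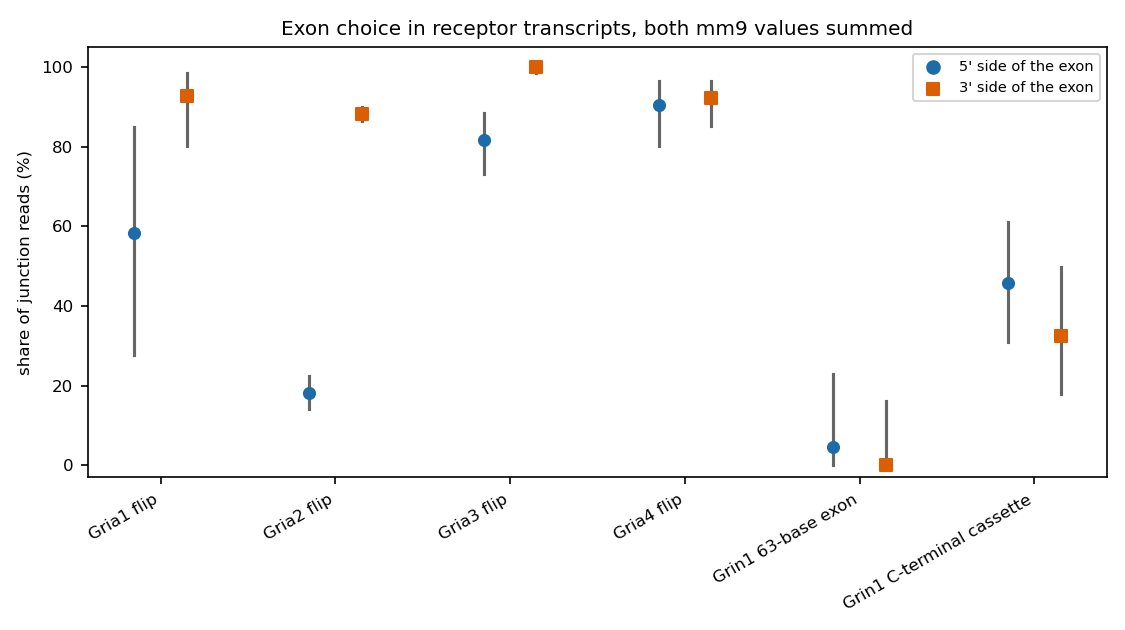
Share of junction reads (%) for flip against flop in the 4 AMPA receptor genes and for inclusion against skipping of the 2 Grin1 cassette exons, on the 5′ side (circles) and the 3′ side (squares), both mm9 values summed; lines are exact 95% binomial intervals. In Gria2 the sides read 18.1% and 88.2%, while the Grin1 C-terminal cassette lies at 45.7% and 32.4%.

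In Grin1, the 63-base N-terminal cassette was included in 1 of 22 and 0 of 21 reads, the latter with an upper bound of 16.1%. Of the skipping reads, 19 were in the first mm9 value and 2 in the second, and transcript TPM put the share at 0% and 10.6%. Its 111-base exon was included in 21 of 46 reads (45.7%, 30.9 to 61.0) and 12 of 37 (32.4%, 18.0 to 49.8), with 45.6% and 26.2% from transcript TPM. Glra2 has only 1 annotated transcript, so its alternative exons could not be compared.

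Among other members with a mean of at least 5 TPM and more than 1 coding transcript, Chrna4 was dominated by a full-length transcript, Chrna4-201, which held 99.7% and 97.5% of its level. In Glrb, the coding transcript Glrb-201 held 46.0% and 83.4%, and the shorter Glrb-206 held 35.2% in replicate 1 and 0% in replicate 2. In Grik2 the longest of its well-detected transcripts (4800 bases) held 75.7% and 57.1%, and a 4365-base transcript 16.8% and 21.8%. Neither has a match in release M21, so whether they are coding is not given here. The Grik2 transcripts of the coding class, Grik2-202 and Grik2-201, had at most 15 counts in a library. Splits of this kind come from the authors' assignment of reads to overlapping transcript models.

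Of the 56 genes, 27 lie in 10 clusters, defined as members within 1000000 bases of each other, and neighbours often had unlike levels. On chromosome 11, Gabrb2 (3.22 TPM on average) shares a cluster with the unread Gabra6. On chromosome 5, Gabra2 was 15.4-fold above Gabrb1. In the chromosome 9 nicotinic cluster of 67.9 kb, the highest gene, Chrna3, was 4.32-fold above the lowest, Chrna5. On chromosome 1, Chrnd and Chrng share 22.1 kb and were both higher in replicate 2. On chromosome X, Gabre was called 2-fold higher, and its neighbours Gabra3 (1.53-fold, 1.39 to 1.69) and Gabrq (1.14-fold, 0.951 to 1.36) were not.

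**Figure D5:**
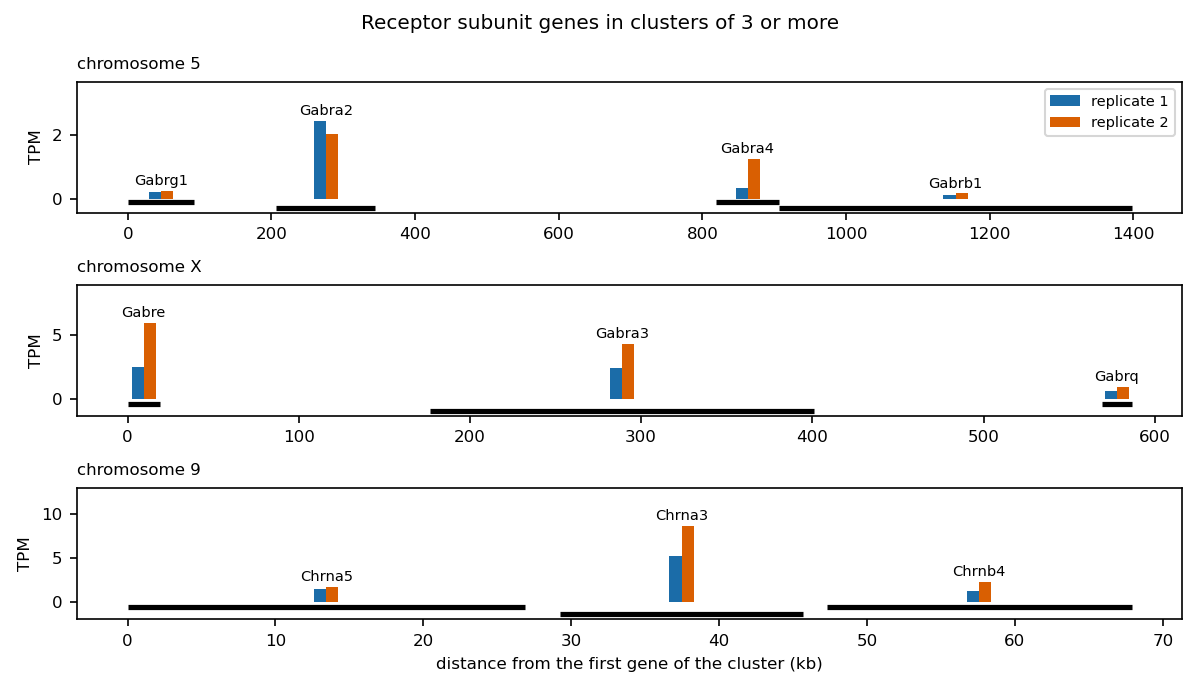
Levels (TPM, bars, replicate 1 blue and replicate 2 orange) of subunit genes in 3 clusters with 3 or more members (chromosomes 5, 9 and X), at their distance in kb from the first gene; black lines show gene extents, staggered for sight. Gabra2 and Chrna3 are the highest genes of the chromosome 5 and 9 clusters.

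Transcripts of receptor partner proteins varied widely in level. Among 14 auxiliary subunit genes of AMPA and kainate receptors, 9 passed 1 TPM in both libraries, beside the 60.8% of protein-coding genes that did, and none differed 2-fold. The highest were Cacng7 (65.1 and 70.3 TPM), Cnih2 (56.4 and 58.1 TPM), which aids export from the endoplasmic reticulum, and Cacng4 (55.1 and 35.7 TPM). The kainate auxiliary gene Neto2 stood at 8.15 and 14.2 TPM, and Cacng3 was lowest at 0.54 and 0.37 TPM. These 3 highest genes lay above every AMPA receptor gene in both libraries.

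Scaffold genes had a median of 43.2 TPM, against 2.93 TPM for the auxiliary subunits and 5.29 TPM for protein-coding genes. All 9 glutamate receptor anchoring genes passed 1 TPM, led by Dlg4, which encodes PSD-95 (69.3 and 89.6 TPM), Gripap1 (74.4 and 60.4 TPM) and Pick1 (65.8 and 64.0 TPM). Dlg2 was lowest (1.21 and 2.02 TPM) and the only one 2-fold apart, 2.28-fold higher in replicate 2 by counts. Of 11 genes listed for GABA-A and glycine anchoring and assembly, 10 passed, with Gabarap (267.2 and 319.8 TPM), Macf1 and Nlgn2 highest. Gephyrin (Gphn) stood at 9.70 and 13.4 TPM. Slc7a10, a solute carrier gene that the list holds although it is not an anchoring or assembly gene, was lowest at 0.48 and 0.62 TPM. Of that list, Lhfpl4 (10496 and 5141 counts) was lower by 2-fold under DESeq2 size factors and just short of it under TMM.

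Of 7 nicotinic assembly and modulation genes, 6 passed, with Ly6h (88.4 and 65.9 TPM), Rer1 (69.7 and 84.4 TPM) and Ly6e (46.3 and 64.3 TPM) highest. Ric3, a chaperone for nicotinic receptors, stood at 14.1 and 11.97 TPM and Lynx1, a brake on them, was lowest at 0.86 and 0.74 TPM. The 3 RNA editing enzyme genes all passed: Adar at 26.8 and 31.6 TPM, Adarb1, whose product edits Gria2 RNA, at 6.03 and 6.38 TPM, and Adarb2 at 2.47 and 2.40 TPM. Among 14 related channels outside the rule, 6 passed, led by Asic1 (14.7 and 13.0 TPM), Asic4 (11.7 and 10.7 TPM) and the ATP-gated P2rx3 (4.02 and 7.48 TPM). Htr3b was lowest at 0.02 and 0.16 TPM, and none of the 11 with at least 100 counts differed 2-fold. Below that minimum, replicate 2 over replicate 1 was 4.63 (2.62 to 8.73) for Htr3a (15 and 68 counts). It was 8.86 (2.71 to 45.7) for Htr3b (3 and 26 counts) and 0.911 (0.583 to 1.42) for P2rx5 (46 and 41 counts).

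The mm9 tables, made by the authors on other gene models, put the members in nearly the same order. Across the 56 genes, mean RPKM (reads scaled for gene length and depth) and mean TPM had a Spearman correlation of 0.989, as a description over genes from the same libraries. Grik5 was first in both, at 7.72 and 5.92 RPKM. Reads joined 508 of the 655 annotated introns of these genes, and 51 of the 56 genes had at least 1 such read. The 5 without were Chrna2, Chrna6, Chrna10, Gabra6 and Glra4.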

How the data were processed

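Per the file headers, the authors deposited expected counts (not always whole), TPM and FPKM for each gene and transcript of both libraries. Their notes name mm10 and GENCODE M4. What aligned and quantified the reads was not stated in the sources used here. For the series the authors also deposited mm9 gene RPKM values and junction read counts, per the file headers. No label ties these to a replicate.

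Expected counts were rounded, Ensembl genes kept (spike-ins, 6.93% and 4.52% of TPM, left out), and scaled with TMM (edgeR 4.0.16, factors 0.957 and 1.04). Log2 ratios used a prior count of 0.5. A difference meant at least 100 summed counts and 2-fold. Folds are of scaled counts, with exact intervals (scipy 1.17.1). The scaling and ratio step was tested on simulated data. Names, coordinates, exon sequences and overlaps came from GENCODE M21 on mm10.

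The members and gene lists were chosen with earlier results of these data known. Named genes were those at 1 TPM in both libraries, each family's highest and lowest, those 2-fold apart, and each partner list's 3 highest and its lowest. A few others were chosen after their values were seen.

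A few genes are counted in the totals but not reported here.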

Additional observations from a re-analysis of the deposited data

How the results depend on the processing

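The count of 26 genes at 1 TPM in both libraries was 30 at 0.5 TPM, 19 at 2 TPM and 22 by FPKM. It was 27 with TPM rescaled over Ensembl genes, without spike-ins and without genes of the mitochondrial genome. By the mean mm9 RPKM it was 6, a value on another scale. Leaving out a replicate gave 27 to 32. The median level of 1.26 TPM was 0.828 FPKM, and 0.82 to 1.40 TPM with a replicate left out. The 10 genes 2-fold higher in replicate 2 remained 10 under DESeq2 1.42.0 size factors, at a minimum of 20 counts and with a prior count of 5. They numbered 4 on log2(TPM + 1), 15 with no minimum and 15 at 1.5-fold. The 0 lower genes became 1 with no minimum (Gabrr3, 9 and 2 counts). Of 33 named ratios, 33 kept their side of 2-fold with DESeq2 size factors and 27 on log2(TPM + 1). Among the 39 genes with at least 100 counts, the sign of the ratio changed in 1 with DESeq2 size factors. It changed in 7 on log2(TPM + 1). Of 12 exon shares from junction reads, 6 lay beyond 1 SD of the transcript TPM share. No paired analysis was possible because there is only 1 group. Depth limits the low genes: 17 of the 56 had under 100 counts.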
